A study of Mus musculus with 4 samples.

Results

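The regions described here are stretches of the mouse genome that carried a called H3K27me3 peak in both wild-type (WT) libraries and in neither knockout (KO) library, from mice that lack Kdm6b in B cells. Peaks of the 4 libraries on chromosomes 1 to 19 were pooled, those that overlapped or touched were merged, and a library had a region if any of its peaks lay in it. This gave 2088 WT-only regions of 116146 merged regions, or 1.80%. They were chosen by the peak calls of all 4 libraries, so their absence from KO is the rule and not a result, and every value below is a description without a test unless one is named. The assay was CUT&Tag, which uses an antibody to bring a transposase to the mark, where it cuts and tags the DNA. The cells were splenic germinal center B cells, called pre-plasma in the series title, from 2 KO and 2 WT mice of the C57BL/6 strain. Both genotypes received sheep red blood cells as antigen with a boost on day 5, spleens were taken on day 12, and each assay used 1000 to 5000 cells and 1 µg of antibody. The sources used here do not give the Cre line, the deleted part of Kdm6b or the sex of the mice. Peak lists of a histone mark do not check the deletion, and the replicate numbers, given here in the order of the samples, only name the libraries.

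H3K27me3 is laid down by Polycomb repressive complex 2 (PRC2) and marks genes held silent, often as broad domains over developmental genes with CpG-rich promoters. The Kdm6b protein (JMJD3) is a demethylase that takes this mark off. Germinal center B cells mutate their antibody genes and give rise to plasma cells and memory B cells.

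Promoters lay inside few WT-only regions, and the sequences below show how differently such promoters can be composed. RefSeq promoter windows, with coordinates on GRCm38.p6 (mm10), run from 250 bases before to 50 bases after a start site. Of 20085 windows of protein-coding genes, 54 lay wholly inside a WT-only region and 15 of these lay wholly inside the peaks of both WT lists. From those 15 the pair with the most CG dinucleotides, the pair with the fewest and the one farthest from any KO peak are printed, 5′ to 3′ along the gene. CG dinucleotides are in capitals. Zbtb43 (chr2:33468483-33468782, minus strand) encodes a zinc finger protein, Fis1 (chr5:136953025-136953324, plus strand) a mitochondrial fission protein, and Lepr (chr4:101717656-101717955, plus strand) the leptin receptor. Defb22 (chr2:152490089-152490388, minus strand) encodes a beta-defensin, of a family with close copies where reads are uncertain, and Col20a1 (chr2:180986285-180986584, plus strand) a collagen.
Zbtb43: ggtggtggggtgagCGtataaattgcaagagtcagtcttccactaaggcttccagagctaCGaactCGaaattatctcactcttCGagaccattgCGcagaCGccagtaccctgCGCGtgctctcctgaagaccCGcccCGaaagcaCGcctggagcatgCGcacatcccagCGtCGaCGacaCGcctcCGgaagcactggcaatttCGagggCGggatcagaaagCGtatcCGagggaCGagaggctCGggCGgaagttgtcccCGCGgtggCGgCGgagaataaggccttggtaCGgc
Fis1: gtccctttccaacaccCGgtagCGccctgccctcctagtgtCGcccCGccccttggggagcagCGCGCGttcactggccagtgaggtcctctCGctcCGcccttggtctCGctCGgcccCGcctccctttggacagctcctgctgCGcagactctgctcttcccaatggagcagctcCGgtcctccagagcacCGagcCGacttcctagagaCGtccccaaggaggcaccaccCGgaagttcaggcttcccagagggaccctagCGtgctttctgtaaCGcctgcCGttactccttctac
Lepr: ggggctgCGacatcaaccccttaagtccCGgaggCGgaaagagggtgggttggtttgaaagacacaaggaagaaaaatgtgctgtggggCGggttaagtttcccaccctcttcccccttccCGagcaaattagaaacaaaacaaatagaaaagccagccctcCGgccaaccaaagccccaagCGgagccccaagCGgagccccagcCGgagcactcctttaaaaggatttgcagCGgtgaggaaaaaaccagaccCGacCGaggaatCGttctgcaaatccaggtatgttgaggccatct
Col20a1: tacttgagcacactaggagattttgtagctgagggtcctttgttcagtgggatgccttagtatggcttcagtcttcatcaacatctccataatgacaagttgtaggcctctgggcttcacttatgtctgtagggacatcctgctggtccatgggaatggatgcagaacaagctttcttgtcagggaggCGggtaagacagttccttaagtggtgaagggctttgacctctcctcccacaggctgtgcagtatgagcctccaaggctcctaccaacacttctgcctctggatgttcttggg
Defb22: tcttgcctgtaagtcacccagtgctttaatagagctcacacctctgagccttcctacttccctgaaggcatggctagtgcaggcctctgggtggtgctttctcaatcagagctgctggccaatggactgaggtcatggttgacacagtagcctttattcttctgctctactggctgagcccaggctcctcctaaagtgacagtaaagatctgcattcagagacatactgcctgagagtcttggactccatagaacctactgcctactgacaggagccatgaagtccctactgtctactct
These windows hold 29, 21, 13, 1 and 0 CG dinucleotides in that order, searched as CG, which reads the same on both strands. The Zbtb43 window is 60.0% G and C, and the Defb22 window 50.7%. A single miRNA hairpin of 919 on chromosomes 1 to 19 overlapped a WT-only region. It was that of Mir7214 (region chr17:27314256-27317259), whose mature 3p product is shown with its seed, bases 2 to 8, in capitals.
mmu-miR-7214-3p: cUCAGUCCugaccccuugagcgca

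The 4 peak lists differed in breadth, and the spread within each genotype exceeded the difference between genotypes. Peaks covered 142.6 and 233.6 Mb in KO replicates 1 and 2, against 210.8 and 100.6 Mb in WT replicates 1 and 2. Mean covered length was 188.1 ± 64.4 Mb for KO, against 155.7 ± 77.9 Mb for WT (± SD over 2 mice a genotype, exact two-sided permutation p = 0.667). The smallest p that 2 mice against 2 allow is 0.333, set by the 6 relabellings, and the test covers only these mice. Peak number averaged 84515 ± 6730 for KO, against 83978 ± 3526 for WT (± SD over 2 mice a genotype, exact two-sided permutation p = 1.0). WT replicate 2 had narrow peaks, with a median width of 862 bp, against 1516 bp in WT replicate 1. A region called in all 4 libraries lay within 2000 bp of 58 of 59 developmental factor genes, against 39.9% of all 20665 protein-coding genes. In the B cell lists it was 3 of 25 germinal center B genes, 9 of 19 plasma cell genes, 10 of 18 memory B genes and 3 of 16 B cell surface genes. Among genes of other blood cells these numbers were 15 of 22 for T cells, 3 of 12 for NK cells, 13 of 21 for myeloid cells and 11 of 14 for red cells and platelets. Read depth was unknown.

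Most of what both WT mice shared was also present in KO. Of 34794 regions in both WT lists, 26744 (76.9%) were in both KO lists as well, 5962 (17.1%) in a single KO list and 2088 (6.00%) in neither. The single KO list was KO replicate 2 in 5012 of these cases and KO replicate 1 in 950. The opposite pattern, called in both KO lists and neither WT list, held 3953 regions or 3.40% of all. The number of WT-only regions depended strongly on single libraries. Without KO replicate 2, the broadest list, it was 8202. It was 3119 without KO replicate 1, 13793 without WT replicate 1 and 15653 without WT replicate 2, where a single WT list then sufficed.

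The WT-only regions sat mostly below the middle of each full WT list by peak height. This depended on how much of each list was kept. Height is the highest signal in a peak, and its percentile is the share of peaks in the same list that were no higher. The median percentile was 32.9 in WT replicate 1 and 36.8 in WT replicate 2. At equal covered length of all lists, the WT-only regions then called had median percentiles of 28.4 (WT replicate 1) and 51.9 (WT replicate 2). These are ranks among the peaks kept. For WT replicate 2, with the least covered length, all were kept, and for WT replicate 1 only the tallest. The 28.4 is therefore not on the same scale as the 32.9 in the full list. For the regions called in all 4 libraries, in the full lists, the medians were 77.2 and 68.6. A region with several peaks in a list took the highest percentile among them. In 98.1% of WT-only regions each WT list had 1 peak. Regions called in all 4 were longer and could hold more, whose part in the difference was not tested. Of the WT-only regions, 240 (11.5%) were above the median height in both WT lists, 307 (14.7%) in the lowest 25% of both and 3 in the top 10% of both. Within each list the heights under 1000 steps, as far as was checked, were whole multiples of a step, to within 0.02 steps. In steps, WT-only regions had a median height of 57 in WT replicate 1, where the median of all peaks was 69, and of 70 in WT replicate 2, where it was 80. The both-KO-only regions stood at a like place in their own lists, with median percentiles of 35.8 in KO replicate 1 and 34.7 in KO replicate 2.

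**Figure D1:**
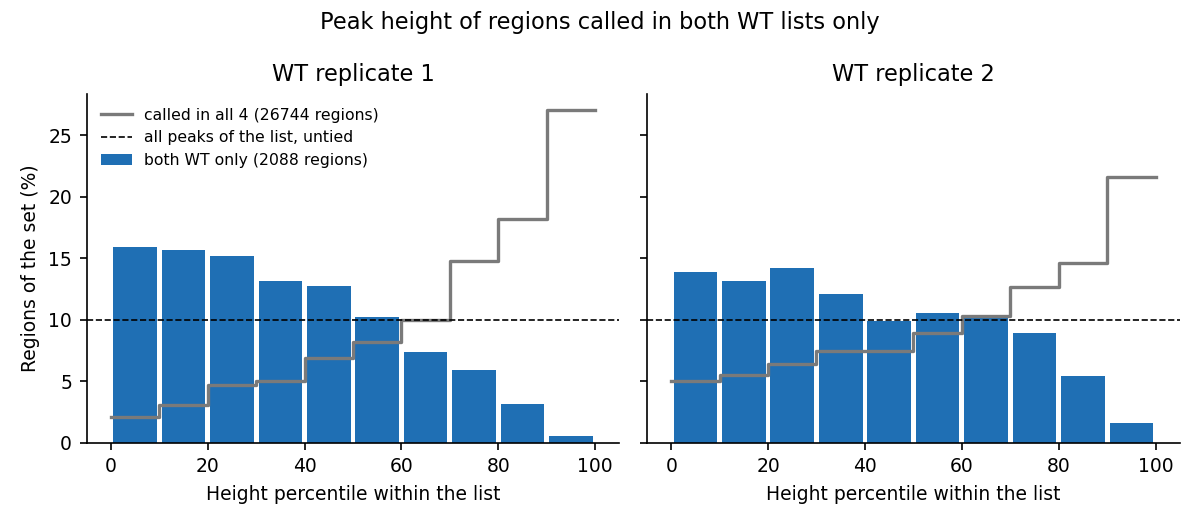
Share of WT-only regions (bars) and of regions called in all 4 libraries (grey line) by height percentile within the list of WT replicate 1 (left) and WT replicate 2 (right), in bins of 10 percentiles. The top bin holds 0.575% of WT-only regions in WT replicate 1 and 1.58% in WT replicate 2, against 27% and 21.6% of regions called in all 4.

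The total signal of these peaks lay in the lower part of each list. Median percentiles of total signal were 29.4 in WT replicate 1 and 32.4 in WT replicate 2. The lowest total was 126328 in WT replicate 1 and 159426 in WT replicate 2. WT-only regions had a median total of 1.39 times that lowest value in WT replicate 1 and 1.31 times in WT replicate 2. All peaks had medians of 1.98 and 1.61 times. The both-KO-only regions had medians of 1.33 times in KO replicate 1 and 1.47 times in KO replicate 2. In those lists all peaks had medians of 1.79 and 2.05 times. Across the 2088 regions the height percentiles of both WT lists hardly moved together (Spearman's rho 0.0698). Across the 26744 regions called in all 4 libraries rho was 0.591. These are relations across regions of the same pair of libraries, and regions are not independent replicates.

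The peaks of the WT libraries coincided only in part. WT-only regions had a median length of 1363.5 bp (quartiles 1076 and 1729 bp), against 4640 bp for regions called in all 4. WT replicate 1 covered a median of 97.8% of the region and WT replicate 2 a median of 53.0%. WT replicate 1 covered more than WT replicate 2 in 1757 regions (84.1%). The stretch called in both WT libraries was 570 bp at the median, or 42.7% of the region. It was under 100 bp in 48 regions and at least 3 bp in every one. In the both-KO-only regions the broader list was KO replicate 2, with 94.9% median cover, against 65.2% in KO replicate 1.

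**Figure D2:**
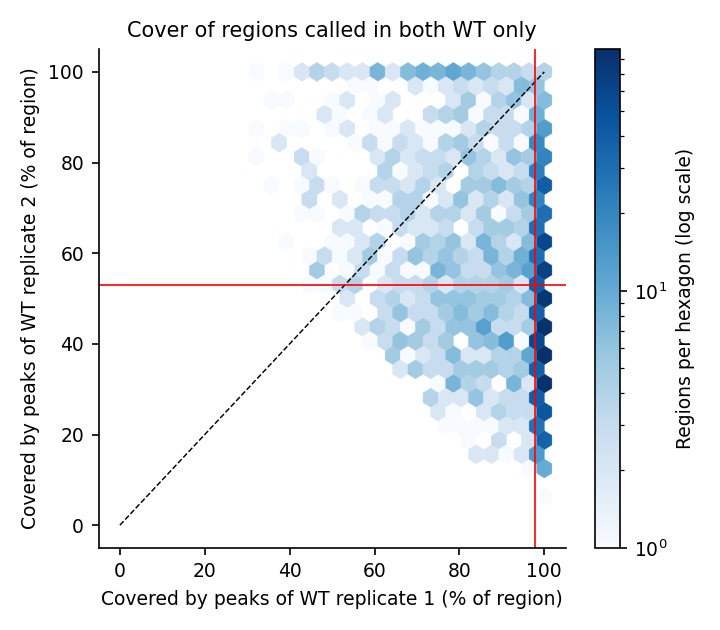
Share of each of the 2088 WT-only regions covered by peaks of WT replicate 1 (x axis, %) and WT replicate 2 (y axis, %), as hexagons shaded by the number of regions on a log scale. Red lines mark the medians, 97.8% and 53.0%, and most regions lie below the dashed line of equal cover.

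KO peaks were often close by. The nearest KO peak was a median of 1303 bp away, and 882 regions (42.2%) had one within 1000 bp. KO replicate 1 had its nearest peak at a median of 3506.5 bp and KO replicate 2 at 1728 bp. Peaks of both KO lists lay within 5000 bp of 1122 regions (53.7%), and 222 regions (10.6%) had no KO peak within 10 kb. The both-KO-only regions had WT peaks at a like distance, with a median gap of 1271 bp and 42.9% within 1000 bp.

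The DNA beside the WT-only regions carried peaks of both genotypes. Of the 5000 bp on each side, peaks covered a median of 7% in KO replicate 1 and 18.5% in KO replicate 2, against 16.8% in WT replicate 1 and 4.86% in WT replicate 2. The order of these values followed the covered length of the lists, whose part in them was not tested. Around regions called in all 4 libraries the medians were 23.7%, 43.7%, 38.3% and 14.1% in the same order of libraries. At the edge of the rule, the 5 regions closest to a KO peak had gaps of 1 to 10 bp. The 5 regions just beyond it, where a KO peak met the WT peaks, shared 1 to 10 bp with them.

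The WT-only regions lay about as far from a region called in all 4 as all regions not called in all 4 did. The median gap to the nearest region called in all 4 was 9292 bp (quartiles 2724.8 and 31046.8 bp). For the both-KO-only regions it was 5828 bp, and for all 89402 regions not called in all 4 it was 8724 bp. A region called in all 4 lay within 10 kb of 51.6% of WT-only regions. This was so for 62.0% of both-KO-only regions and 52.9% of all regions not called in all 4. At more than 50 kb these shares were 16.3%, 11.5% and 16.0%.

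**Figure D3:**
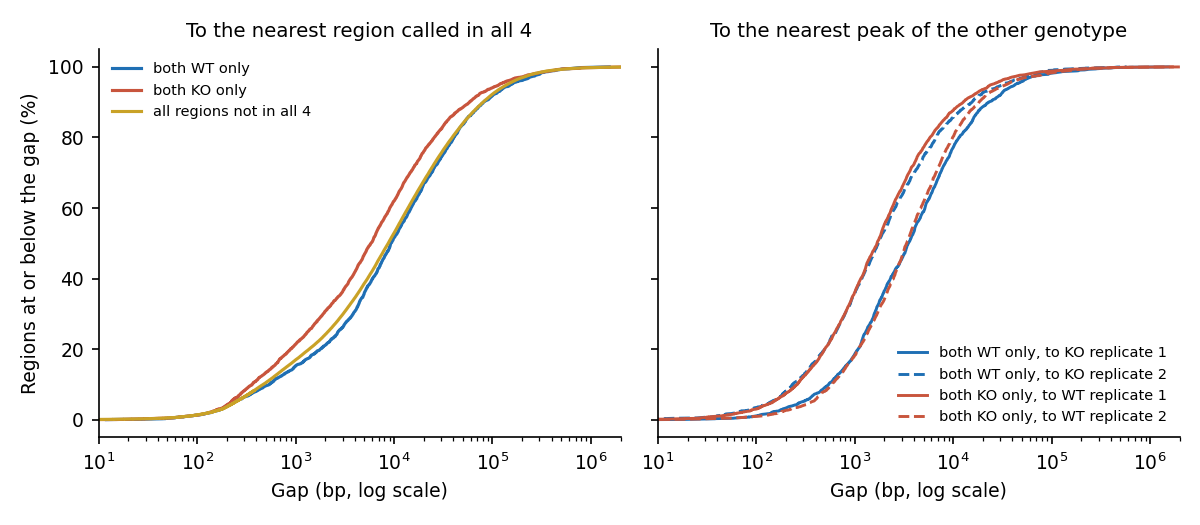
Cumulative share of regions (%) by gap on a log scale, to the nearest region called in all 4 libraries (left) and to the nearest peak of each library of the other genotype (right). The WT-only curve on the left runs with that of all regions not called in all 4 (medians 9292 and 8724 bp), and on the right the nearer list is the broader one of the other genotype.

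When every list was brought to the same covered length by dropping its lowest peaks, there were 1701 WT-only regions, but they overlapped 115 (5.51%) of the 2088. With only the peaks above the median height of each list there were 1197, and these overlapped 220 (10.5%). A region that lost its peak in a WT list could not be counted again. At the median height, at most the 240 regions (11.5%) above it in both WT lists could remain. The low overlaps thus follow in part from the trimming itself, and nothing about the stability of the set is read from them. Asking that a library cover at least 25% of a region dropped no peaks, and gave 1991 regions that overlapped 1951 (93.4%) of the 2088.

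Fewer WT-only regions lay near gene starts than in the other sets. Of the 2088, 895 (42.9%) overlapped a protein-coding gene, against 43.2% of both-KO-only regions, 51.5% of regions called in all 4 and 45.0% of all regions not called in all 4. Start sites were taken from the RefSeq promoter table, which gave one for 16457 of the 20665 protein-coding genes and none on chromosome 18, so the 2023 regions elsewhere were used. A start site lay within 2000 bp of 121 (5.98%) of them. This share was 11.0% for both-KO-only regions, 22% for regions called in all 4 and 8.19% for all regions not called in all 4. WT-only regions that contained a start site numbered 63 (3.11%). The same share was 6.06% for both-KO-only regions, 17.1% for regions called in all 4 and 4.14% for all regions not called in all 4. Regions called in all 4 were longer, with a median of 4640 bp against 1363.5 bp for WT-only regions. The part of length in these shares was not tested. Per gene, 124 of 16457 genes (0.753%) had a WT-only region within 2000 bp of a start site, against 2.69% with a both-KO-only region and 33.1% with a region called in all 4. Along genes of known strand, the first 25% of the gene held the centres of 25.4% of WT-only regions, 32.2% of both-KO-only regions and 39.7% of regions called in all 4. Exons and introns were not used here.

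**Figure D4:**
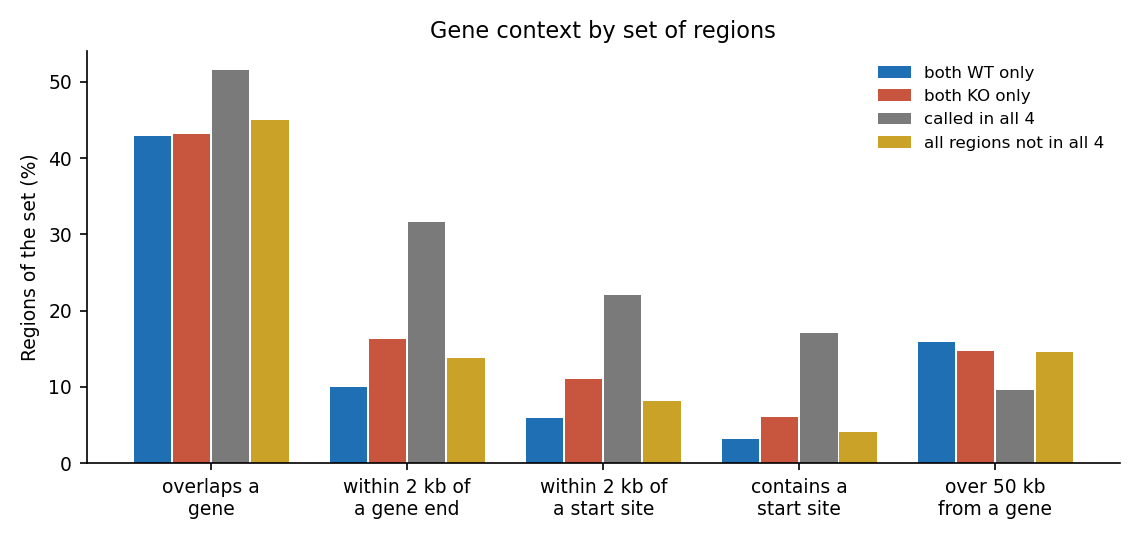
Share of regions (%) in each gene context for WT-only regions, both-KO-only regions, regions called in all 4 libraries and all regions not called in all 4. Near a start site lie 5.98% of WT-only regions, 11.0% of both-KO-only regions, 22% of those called in all 4 and 8.19% of those not called in all 4.

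The promoters inside WT-only regions held fewer CG dinucleotides at the median than those inside both-KO-only regions or regions called in all 4. The 54 windows had a median of 8 CG dinucleotides, against 20 in the 218 windows inside both-KO-only regions, 16 in the 5434 inside regions called in all 4 and 14 over all 20085. The 11179 windows that lay wholly in no merged region had a median of 9, close to that of the WT-only regions. Windows with over 50% G and C and a ratio of observed to expected CG above 0.6 made up 18 of 54 (33.3%). They made up 70.6% in both-KO-only regions, 49.4% in regions called in all 4, 40.7% of windows wholly in no region and 46.2% of all windows. The 54 windows are few, came from 51 genes and in part overlapped. No difference between 33.3% and 40.7% is therefore read. The windows printed above differed widely in CG. Zbtb43, with 29 CG, had heights of 135 steps in WT replicate 1 and 178 steps in WT replicate 2, and KO peaks began 619 bp away in KO replicate 1 and 784 bp away in KO replicate 2. Lepr, with 13 CG, had 62 and 85 steps in the WT replicates, and the nearest KO peaks were 69488 and 68682 bp away. Defb22, with no CG, had 62 and 50 steps in the WT replicates, with KO peaks 5044 and 16079 bp away.

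Across the lists of B cell genes, 1 gene had a WT-only region nearby. Over all 20665 protein-coding genes, 831 (4.02%) had a WT-only region within 2000 bp, against 7.87% with a both-KO-only region. Of the 831 genes, 647 also had a region called in all 4 within that distance. Of 25 germinal center B genes, 19 plasma cell genes, 16 B cell surface genes and 12 NK cell genes, 0 had one, beside that background of 4.02%. Of 18 memory B genes, 1 had one. This was Pdcd1lg2, which encodes PD-L2, a surface protein of a subset of memory B cells. Its region (chr19:29450843-29452184) lay inside the gene, 39923 bp from the start site. Peaks covered 0% of the gene body in both KO libraries, against 1.68% in WT replicate 1 and 2.06% in WT replicate 2, where the gene was named for holding this region. The heights were 87 steps in WT replicate 1 and 77 in WT replicate 2, at percentiles 70.2 and 46.5. The nearest KO peaks lay 32131 bp away in KO replicate 1 and 88706 bp away in KO replicate 2.

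Apart from the NK cell list, each list of other lineages had 1 or 2 genes with a WT-only region. Over all 20665 protein-coding genes the share was 4.02%, and with so few genes no difference from it is read. Cd3g, a chain of the T cell receptor complex, was 1 of 22 T cell genes. Its region (chr9:44971104-44972237) lay in a gene body covered to 70.8% and 54.0% in KO replicates 1 and 2, against 81.1% and 72.8% in WT replicates 1 and 2, so every library had peaks over the gene. Of 21 myeloid genes 2 had one. Flt3, a receptor kinase of blood progenitors, had a region that contained its start site (chr5:147399837-147400777). The WT replicate 2 peak covered the start site, and the WT replicate 1 peak lay inside the gene and did not reach it. Heights were 73 and 75 steps in the WT replicates, and KO peaks were 4350 and 7370 bp away. Peaks covered 0.898% and 1.26% of the Flt3 body in the KO replicates, against 0.672% and 0.847% in the WT replicates, so both KO values were the higher ones. Ly6g, a neutrophil surface protein, had one 653 bp from its start (chr15:75152504-75154607), but it belongs to a family with close copies where reads are uncertain. In KO replicate 2 peaks covered 64.5% of the Ly6g body and in KO replicate 1 none of it, against 33.5% and 24.2% in the WT replicates.

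Ank1, which encodes the red cell ankyrin, was 1 of 14 genes of red cells and platelets and held a pair of regions. Pax7, a factor of muscle stem cells, was the sole one of 59 developmental factors, with a region 937 bp beyond its body. That body was covered to 56.1% and 86.4% in the KO replicates, against 72.8% and 47.4% in the WT replicates. Among the Polycomb and demethylase genes, Cbx7, which encodes a chromobox protein of Polycomb repressive complex 1 (PRC1) that binds H3K27me3, had one. At Cbx7 the body was covered to 33.4% and 48.7% in the KO replicates and 50.3% and 29.5% in the WT replicates, so the groups overlapped.

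The most WT-only regions in any protein-coding gene were 4, in 6 genes. Ano1, a calcium-activated chloride channel, Denn2b, Tead1, a transcription factor of the Hippo pathway, Skap1, an adaptor of T cell signalling, Grik4, a kainate receptor subunit, and Rora, a nuclear receptor, overlapped 4 each. They span 163478 to 734843 bp. Tead1 had 4 of its 38 merged regions in this class, and Skap1 had 4 of 77. At Tead1 peaks covered 12.9% and 17.7% of the body in the KO replicates, against 33.2% and 10.7% in the WT replicates, so WT replicate 1 stood above every other library.

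Bpifb6, which encodes a protein of the lipid-binding BPI fold family, overlapped 3 regions in a body of 12408 bp, the last of them across the gene's end, and Shb, an adaptor gene, overlapped 3 in 107553 bp. They are the shortest of the genes tied at 3 regions. Peaks covered 4.09% and 8.15% of the Bpifb6 body in the KO replicates, against 64.9% and 11.3% in the WT replicates. A gene chosen for its WT-only regions has WT peaks there by the rule, and the cover in WT replicate 2 comes from its peaks in those regions, so no difference is read from these values. WT replicate 1 also had peaks in the gene outside those regions. The gene had 7 merged regions, of which 0 were called in all 4. The heights of the 3 regions were 76, 37 and 47 steps in WT replicate 1 and 95, 69 and 73 in WT replicate 2.

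**Figure D5:**
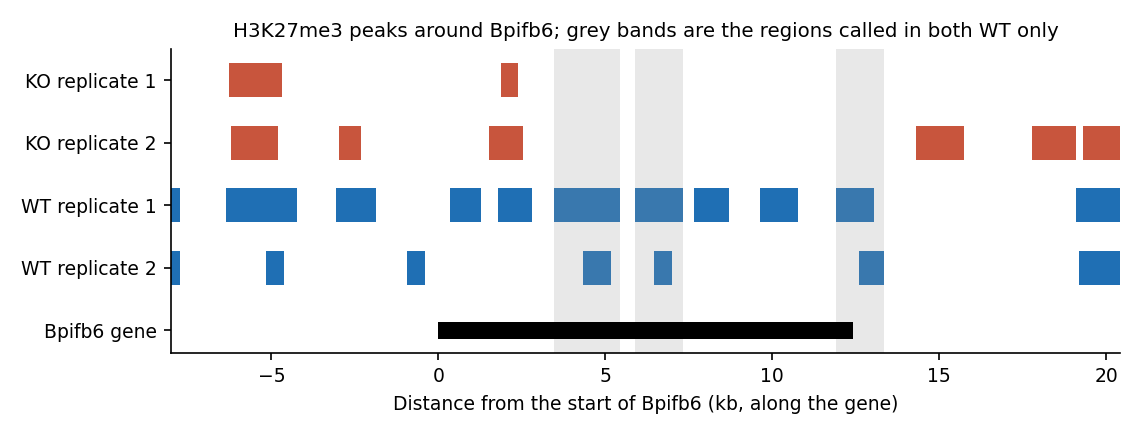
Peaks of the 4 libraries around Bpifb6, by distance from the gene's start in kb, with the gene as a black bar and the WT-only regions as grey bands. WT replicate 1 has a row of peaks across the gene, WT replicate 2 has shorter ones in the 3 bands, the last of them beyond the gene, and each KO list has 1 peak in the gene.

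From a WT-only region the nearest other one was a median of 151748 bp away, and 548 (26.2%) had another within 50 kb. For the more numerous both-KO-only regions these values were 62433 bp and 43.7%. Leaving out a library gave more regions, and the share with another within 50 kb rose with their number. No share was computed for equally many other merged regions, so no clustering is read from this share. It was 36.1% without KO replicate 1, 68.8% without KO replicate 2, 72.7% without WT replicate 1 and 81.4% without WT replicate 2. In the order of merged regions along the chromosomes, 1998 stood alone, 42 pairs were neighbours and 2 runs held 3. Per chromosome they made up between 1.45% of merged regions, on chromosome 11, and 2.12%, on chromosome 7, around the overall 1.80%. The fullest window of 1 Mb, chr6:91000001-92000000, held 11 among 162 merged regions (6.79%). It spans Wnt7a, a Wnt ligand gene, Fbln2, Slc6a6, Grip2 and Fgd5. The next were chr7:112000001-113000000 with 9 of 134, across Mical2, Parva and Tead1, and chr17:45000001-46000000 with 9 of 164, near Cdc5l and Supt3. Windows chr9:71000001-72000000, with Cgnl1 and Aldh1a2, and chr8:95000001-96000000, with Kifc3, held 8 each.

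One run of 3 neighbours lay between genes with Ifng, the gene of interferon gamma, as the nearest. It spanned 5209 bp (chr10:118560981-118566189), beginning 115086 bp from Ifng. In WT replicate 1 the 3 regions had heights of 71, 45 and 109 steps, and in WT replicate 2 of 62, 107 and 55 steps. The nearest KO peaks were 44394 bp or more away in KO replicate 1 and 38290 bp or more away in KO replicate 2. The other run, chr17:45339353-45353627 near Cdc5l, had a KO replicate 2 peak 62 bp from its first member.

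Ordered by mean percentile over both WT lists, the first 8 were nearest to Zbtb43, Ywhab, Ppp1r36, Simc1, Ehd4, Fgd4, Pafah1b1 and Rimkla. Regions at Zbtb43, Ppp1r36, Simc1 and Ehd4 contained a start site, and those at Fgd4 and Pafah1b1 lay 792 and 615 bp from one. These 8 were picked as the extreme of the set, so no share is drawn from them. Their percentiles were 78.8 to 93.3 in WT replicate 1 and 80.6 to 96.1 in WT replicate 2. Their lengths ran from 465 to 1910 bp. All but the region nearest to Ywhab were shorter than the 1363.5 bp median of all WT-only regions. At Pafah1b1, which encodes the dynein regulator LIS1 (chr11:74724474-74724938), the WT heights were 162 and 112 steps, and KO replicate 2 had a peak 467 bp away. At Ehd4, an endocytic protein gene (chr2:120154124-120155018), the WT heights were 113 and 144 steps, and the KO peaks were 21782 and 5149 bp away.

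The regions most fully covered by both WT lists were at Zbtb43 and nearest to Vapa, Terb2, Lgals3 and Sp3. In these 5, the share covered was 98.9% to 100% by WT replicate 1 and 97.8% to 100% by WT replicate 2. Lengths were 671 to 744 bp. Heights were spread over the lists, since the region nearest to Lgals3, the galectin-3 gene, stood at percentiles 15.6 and 9.47 in the WT replicates.

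A few regions stood far from any KO peak. The farthest was in Slc16a7, a monocarboxylate transporter gene (chr10:125388120-125389098), with gaps of 1520904 bp to KO replicate 1 and 577487 bp to KO replicate 2. WT replicate 1 had 46 steps there and WT replicate 2 had 96. Synpr, a synaptic vesicle protein gene, followed with a region over its start site (chr14:13284535-13285392) and gaps of 615561 and 462019 bp. At Dact2, a regulator of Wnt signalling (chr17:14201461-14203361), the gaps were 439118 and 435285 bp, but the WT replicate 2 peak stood at percentile 0.941 of its list. Regions at Tcerg1l and nearest to Adgrl2 completed the 5, with gaps of at least 281518 bp.

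The same Slc16a7 region was also the farthest from any region called in all 4, at 1536091 bp. The others in that order were nearest to Zeb2, Kynu, Slc39a10 and the predicted gene 4930453N24Rik, at 794616 to 1418117 bp. Zeb2 itself lay 1486269 bp from its region, so the name only places that region. Unlike the Slc16a7 region, these other regions had KO peaks nearby in at least 1 list, at 2297, 883, 3643 and 462 bp from KO replicate 2.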

How the data were processed

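H3K27me3 CUT&Tag peak lists of 2 KO and 2 WT mice were used, 1 list per library. The authors deposited each peak's total and highest signal (coverage), on a scale that no source used here gives. Per the submitters' processing notes deepTools, SEACR, SAMtools 1.11, Bowtie2 2.4.2 and Trim Galore 0.6.6 were used with mm10. The sources used here do not state the control or threshold for peak calling. Signal was ranked within a list only and never compared between lists. No counting interval is given because the files hold no read counts.

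Peaks on chromosomes 1 to 19 were merged where they overlapped or touched, and 1 bp of overlap counted as a call. Gaps are bases between the nearest edges. Genes, start sites and sequences came from RefSeq on GRCm38.p6. Peak number and covered length were compared by exact two-sided permutation (6 relabellings). The interval code was tested on simulated data. Genes and regions were named by rank (height, cover, gaps, members per gene or per 1 Mb) or list membership. Those rules, the gene lists and the members were chosen with earlier results of these data known. Python 3.11.15, numpy 2.4.6, pandas 2.3.3 and matplotlib 3.10.9 were used. Alternatives changed the merging gap, the overlap, the peak threshold, the covered length, the chromosomes, the height measure, the window around gene ends and the libraries. One result for the Polycomb and demethylase list is not reported here.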

Additional observations from a re-analysis of the deposited data

How the results depend on the processing

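The number of WT-only regions, 2088, was 1356 with peaks up to 1000 bp apart merged, 1206 with KO peaks kept at least 1000 bp away and 1197 with the peaks above the median height of each list. It was 1991 when a call needed 25% of the region, 1701 at equal covered length and 2118 with chromosomes X and Y. Leaving out a library gave 3119 to 15653. The difference in peak number, KO minus WT, was 537.5 and ranged from -4221.5 to 5296.5 without 1 library each, and that in covered length was 32.4 Mb and ranged from -22.6 to 87.5 Mb. Without KO replicate 2 they were -4221.5 and -13.1 Mb, and without WT replicate 2 they were -1956.0 and -22.6 Mb. Of 52 recomputed shares and percentiles, 26 moved beyond a set limit. For shares the limit was an exact 95% binomial interval over the 2088 regions. For percentiles it was the SD over the medians of both WT libraries. Regions are not independent replicates, so these limits only sort the values and test nothing. The share overlapping a gene ran from 42.1% to 45.6%, and the share within 10 kb of a region called in all 4 ran from 37.5% to 67.2%. The share with another such region within 50 kb ran from 19.6% to 81.4%, with the 4 highest values without 1 library each. Where peaks were dropped, percentiles were ranks among the peaks kept. The median height percentile ran from 28.4 to 39.4 in WT replicate 1. With total signal in place of height the medians were 29.4 in WT replicate 1 and 32.4 in WT replicate 2. By height, the median in WT replicate 2 ran from 36.8 to 51.9, highest at equal covered length. The cause was not tested. No paired analysis was possible because the submitters' labels number no replicates, and the numbers used here only name the libraries. The unknown depth and signal scale limit all height comparisons to ranks within a list.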
